A study of Mus musculus with 5 samples.

Results

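Cd274 and Ido1 encode inducible proteins by which stromal cells can restrain T cells, and each was represented by 1 probe set among the 3373 of the deposited table. They were found by taking every probe set annotated to either symbol, which gave 2 of the 3013 probe sets with 1 gene symbol and 2 of 2190 named genes. The probe set of Cd274 was 1419714_at and that of Ido1 was 1420437_at. Neither identifier carries the _s_at or _x_at ending that marks probes shared between transcripts. RNA was hybridised to Affymetrix arrays from mesenchymal stem cells (MSC) of mouse bone marrow, purified and grown in Mesencult medium as a primary culture. A total of 3 arrays held MSC alone. The other 2 held MSC kept for 48 h in a transwell with 10 T cells per MSC, the T cells having been activated through CD3 and CD28. The membrane separates the cells and lets secreted products pass. Each array was labelled as its own biological repetition. The labels used here give no mouse strain or age, no source of the T cells and no arm with resting T cells, so exposure to any T cells and exposure to activated ones cannot be told apart. For MSC alone they give no transwell or hours in culture, so a difference in either cannot be told apart from exposure.

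PD-L1, the product of Cd274, is a surface ligand that binds PD-1 on T cells and dampens signalling through the T cell receptor. IDO1 is a cytosolic enzyme that takes the first and rate-limiting step from tryptophan to kynurenine, which both depletes an amino acid that dividing T cells need and yields products that inhibit them. Transcription of both genes is classically induced by interferon-gamma, which activated T cells secrete, through the JAK kinases and the factor IRF1. Mouse MSC are known for suppressing T cells chiefly through nitric oxide, and human MSC through IDO1.

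The bases before the transcription start of Cd274 are shown because interferon-activated factors act on promoters, and those of Igtp because it was among the genes whose profile was most like that of Cd274 (below) and held matches to both interferon motifs searched. Sequences are from RefSeq's promoter table, build GRCm38.p6, plus strand. That of Cd274 is chr19:29367188-29367437, the 250 bases before the start, with each GAAA or its complement TTTC in capitals. GAAA is the core repeated in binding motifs of interferon regulatory factors.
Cd274: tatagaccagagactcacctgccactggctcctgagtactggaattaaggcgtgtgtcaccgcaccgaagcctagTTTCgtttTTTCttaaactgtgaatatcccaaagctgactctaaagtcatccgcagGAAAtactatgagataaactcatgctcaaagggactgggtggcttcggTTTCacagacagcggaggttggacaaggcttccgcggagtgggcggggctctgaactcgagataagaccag
The stretch of Igtp is chr11:58199501-58199541, with a STAT-type match and the interferon-stimulated response element that follows it in capitals.
Igtp: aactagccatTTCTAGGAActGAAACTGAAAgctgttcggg
Both strands of the 250 bases were searched for the STAT motif GAS (TTCNNNGAA), the response element ISRE (GAAA, then NN, then GAAA, so that it contains the core), GAAA itself and an NF-kB motif (GGGNN, then TTTCC). The Cd274 window held 4 GAAA matches, a number reached or exceeded in 28.9% of the 32851 windows in the table, and 0 matches to GAS, ISRE or the NF-kB motif. A GAS match was present in 7.02% of all windows, an ISRE match in 2.98% and an NF-kB match in 1.41%. These letter matches are a description of the window and do not show where a factor binds.

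Cd274 stood at 4.70, 4.89 and 4.35 on the log2 scale in replicates 1, 2 and 3 of MSC alone, and at 10.03 and 9.89 in replicates 1 and 2 of co-culture. The values are RMA summaries, which are log2 intensities made comparable between arrays by quantile normalisation. The groups lay far apart: the lowest co-culture array exceeded the highest array of MSC alone by 5.003. The mean went from 4.65 ± 0.28 (SD, n = 3) to 9.96 ± 0.10 (SD, n = 2), a rise of 5.32 ± 0.22 (SE) on the log2 scale, or 39.8-fold, with an adjusted p of 0.000139 in limma and a 95% interval of 4.78 to 5.85.

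Ido1 stood at 3.61, 3.44 and 3.72 in replicates 1, 2 and 3 of MSC alone and at 4.62 and 4.56 in the co-culture replicates. The groups did not overlap either, but the gap between the nearest arrays was 0.84. The mean went from 3.59 ± 0.14 (SD, n = 3) to 4.59 ± 0.04 (SD, n = 2), a rise of 1.00 ± 0.18 (SE), or 2.00-fold, with an adjusted p of 0.00492 in limma and a 95% interval of 0.57 to 1.43. In co-culture the probe set of Ido1 therefore read about where that of Cd274 read in MSC alone. Different probes bind with different strength, so this compares brightness and not transcript number.

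**Figure D1:**
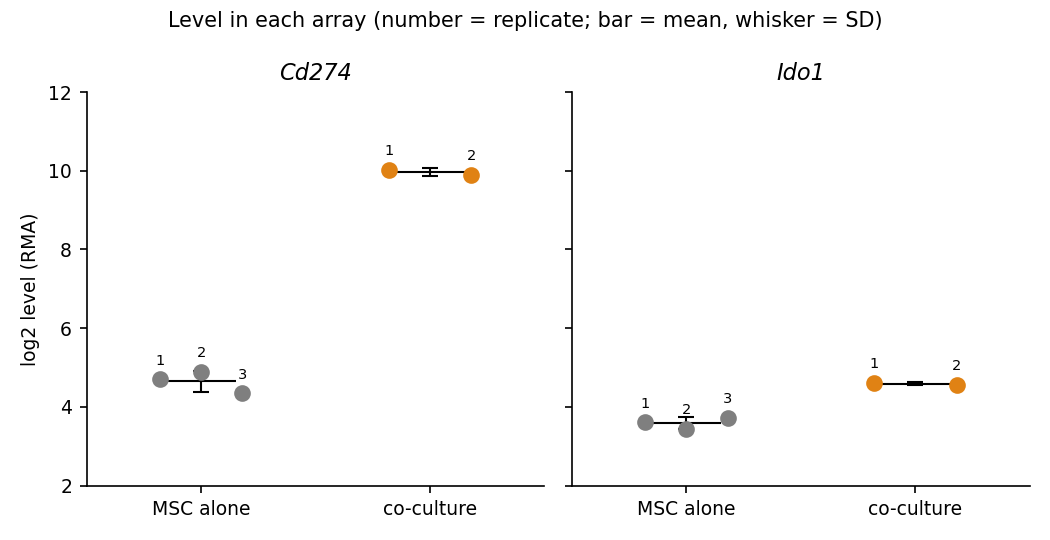
Log2 level of Cd274 (left) and Ido1 (right) in each array, with points numbered by replicate, a bar at the group mean and a whisker of 1 SD. Cd274 lies between 4.35 and 4.89 in MSC alone and at 9.89 and 10.03 in co-culture; Ido1 lies between 3.44 and 3.72 and then at 4.56 and 4.62.

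These p-values have little weight of their own. All 3373 probe sets of the table (100%) passed the threshold of 0.05, and in all of them the groups did not overlap, with a smallest gap of 0.34, so the table appears to be chosen for this comparison by a rule not given in the sources used here. Such a choice favours small spreads and large differences, so the errors may be too small. Of the probe sets 48.7% were higher in co-culture and 51.3% lower. With the unadjusted limma p multiplied by 15 times the rows of the table, Cd274 kept its call (0.0125) and Ido1 lost it (1). The factor allows for more tests, but the spread behind that p is still estimated within the chosen table, so the product is not a bound. Without moderation of the spread the unadjusted p of Cd274 in limma's linear model was 0.000138. That p is too large to stay under 0.05 with the same factor. The call that Cd274 kept therefore depends on the moderated spread. An exact permutation test over the 5 arrays, two-sided by doubling the smaller tail, gave p = 0.2 for each gene. That is the smallest that 10 splits allow with this doubling. RMA gives no detection call, so whether either transcript was present in MSC alone cannot be said. The same holds for Ido1 in co-culture, where its probe set stayed dim. In bulk RNA, more cells with the transcript and more transcript per cell cannot be told apart.

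The rise of Cd274 was larger than that of Ido1. Subtracting the log2 value of Ido1 from that of Cd274 in each array gave 1.09, 1.45 and 0.63 in replicates 1, 2 and 3 of MSC alone, and 5.41 and 5.33 in the co-culture replicates. All co-culture values were above all values of MSC alone. The change of Cd274 exceeded that of Ido1 by 4.32 on the log2 scale, or 19.9-fold as a ratio of the folds. The exact permutation p was 0.2 (two-sided), again the smallest possible with the doubled tail. Both genes were dim in MSC alone, where RMA compresses values, so neither fold nor their ratio is exact. The arrays of MSC alone also ordered the genes differently: replicate 2 was highest for Cd274 and lowest for Ido1, and replicate 3 was lowest for Cd274 and highest for Ido1. In co-culture replicate 1 was slightly above replicate 2 for both.

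In rank, Cd274 crossed most of the table and Ido1 stayed near its bottom. In MSC alone 5.75% to 8.75% of the 3373 probe sets lay below Cd274, and in co-culture replicates 1 and 2 the shares were 86.4% and 83.6%. For Ido1 the shares were 0.652% to 1.81% in MSC alone, and 7.44% and 8.18% in co-culture. Among the probe sets, 7 had a larger rise than Cd274 and 928 a larger rise than Ido1, out of 1642 that were higher. Among the 1057 higher genes Cd274 was number 6 and Ido1 number 579. Igtp (5.41) and Gbp6 (5.30) were next to Cd274 in this order, and Cbll1 and Rabgap1 (1.00 each) next to Ido1. Because the table holds a selection, these ranks are places within it and not within the transcriptome.

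**Figure D2:**
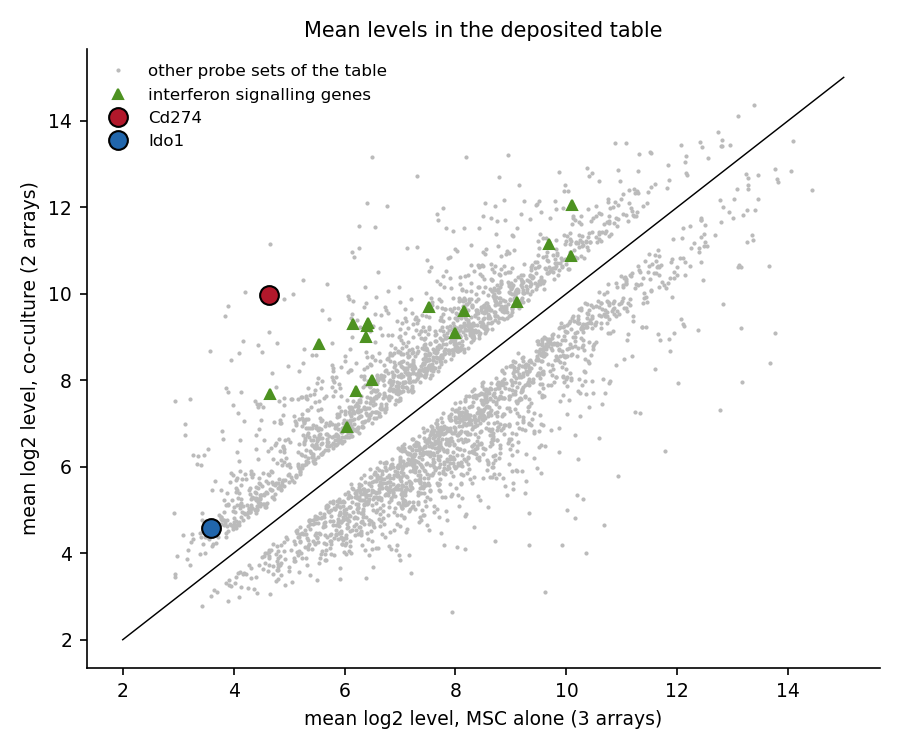
Mean log2 level in MSC alone (horizontal) against co-culture (vertical) for the 3373 probe sets in grey, with Cd274, Ido1 and 16 interferon signalling genes marked and the line of equal level drawn. The empty strip along the line is the selection of the table; Cd274 lies far above it at 4.65 and 9.96, and Ido1 lies in the lower left corner at 3.59 and 4.59, close to the strip.

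Dim probe sets can move by different amounts from bright ones, so each gene was also set among probe sets whose mean in MSC alone lay within 0.5 of its own. For Cd274 there were 231, of which 169 were higher in co-culture, with a median difference of 0.79 and a range from -1.73 to 6.50. Only 2 of them rose by more than Cd274. For Ido1 there were 110, of which 98 were higher, with a median of 1.00 and a range from -1.01 to 5.82. A total of 55 rose by more than Ido1, which thus sat at the middle of the probe sets of its brightness in this table. Every probe set in the table separates the groups, and a dim one has little room to fall. The bands therefore lack unchanged probe sets, and their shares and medians depend on that selection. They do not give the place of either gene among all probe sets of its brightness on the array.

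**Figure D3:**
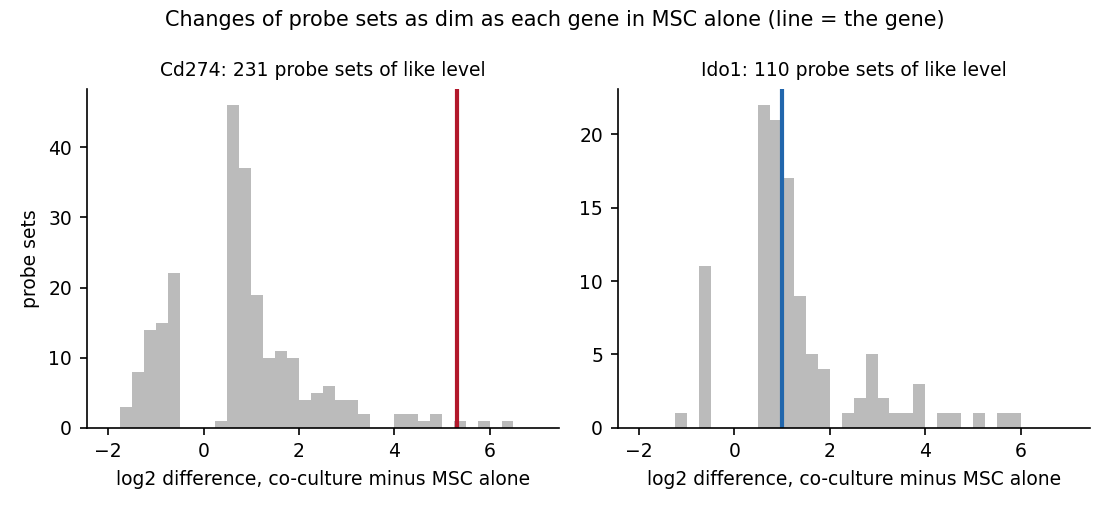
Number of probe sets (vertical) by log2 difference, co-culture minus MSC alone (horizontal), among those within 0.5 of the mean of Cd274 (left, 231) or of Ido1 (right, 110) in MSC alone; the line marks the gene. Cd274 at 5.32 lies at the far right of its histogram, and Ido1 at 1.00 lies in the bulk.

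Of 40 listed surface ligands and receptors that inhibit or help T cells, the table held 2, Cd274 and Fas, and both rose, against 48.3% of all named genes called higher and 51.7% lower. The other 38, among them Pdcd1lg2, which encodes the second PD-1 ligand PD-L2, were not analysed here. Fas, a death receptor, was at 7.70, 7.53 and 6.64 in MSC alone and at 8.61 and 9.72 in co-culture, a rise of 1.87 ± 0.44 (SE); without moderation of the spread its adjusted p in limma's linear model was 0.0518, the highest of its alternatives, which reached down to 0.00593.

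Of 20 listed genes that act on the PD-L1 protein, 6 were in the table, of which 2 rose and 4 fell, where 48.3% of all named genes were higher and 51.7% lower. Their median difference was -0.99, beside -0.61 over all named genes. Since the table lacks unchanged probe sets, the median over all named genes depends on its split into higher and lower genes. It is not a typical change. Cmtm6, whose product keeps PD-L1 at the cell surface, was at 7.34, 7.17 and 7.01 in MSC alone and at 7.93 and 8.37 in co-culture, and rose by 0.97 ± 0.22 (SE). Gsk3b, a kinase that marks PD-L1 for degradation, fell by 1.27 ± 0.27. Cul3, the scaffold of a ubiquitin ligase that degrades PD-L1, fell by 0.87 ± 0.23 in its brightest of 3 probe sets, which all fell. Without co-culture replicate 2 the fall of Cul3 lost its call in limma (it fell by 0.69, adjusted p 0.0526, the highest of its alternatives, which reached down to 0.0108). Zdhhc9, a palmitoyltransferase for PD-L1, fell by 1.34 ± 0.32. The catalytic subunits of the glycosylating enzyme went opposite ways: Stt3b fell by 1.10 ± 0.26 from a mean of 11.2, and Stt3a rose by 0.80 ± 0.21 from a low mean of 4.003. These are transcripts, and PD-L1 protein was not measured here.

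Ido1 was the 1 gene in the table of 14 that encode enzymes from tryptophan to NAD. The others, which include Ido2, Tdo2, Kmo and Kynu, were not analysed here. Of 21 genes for tryptophan transport, charging and sensing, 3 were in the table. Slc3a2, the heavy chain of the large neutral amino acid transporter, was high at 11.00, 11.01 and 11.70 in MSC alone and rose by 1.09 ± 0.27 (SE) to 12.24 and 12.43. Arnt, the partner of the kynurenine-binding aryl hydrocarbon receptor, rose by 1.29 ± 0.25. Slc36a4, a tryptophan and proline transporter, fell by 1.91 ± 0.42; it fell by 2.59 without co-culture replicate 1 and by 1.23 without replicate 2.

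Of 10 listed partners and regulators of IDO1, 4 were in the table, of which 2 rose and 2 fell, a split like that of all named genes (48.3% higher and 51.7% lower). Socs3, whose product can target IDO1 for degradation, rose by 1.95 ± 0.46 (SE) in the brightest of 3 probe sets, which is of the cross-binding _x_at kind, and without moderation of the spread its adjusted p in limma's linear model was 0.0504, where its other alternatives reached down to 0.00134. Ptpn11, a phosphatase that binds phosphorylated IDO1, rose by 0.65 ± 0.18. Fyn, a kinase that phosphorylates it, fell by 1.66 ± 0.37, and Bin1, known as a restraint on Ido1 expression, fell by 0.87 ± 0.21.

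Of 34 genes of interferon receptors, kinases, transcription factors and feedback, 16 were in the table and all 16 rose, where 48.3% of named genes were called higher. Their median difference was 1.75 (log2). The median of -0.61 over all named genes is set by the split of a table without unchanged probe sets, so it is a weak yardstick. Each rise was smaller than that of Cd274. At the receptor end, Ifnar2, a chain of the type I interferon receptor, rose by 1.47 ± 0.24 (SE), Jak1 by 1.10 ± 0.27 and Jak2, the kinase on the interferon-gamma receptor, by 1.45 ± 0.26. Among the factors, Stat2 was at 6.35, 6.46 and 6.33 in MSC alone and at 9.05 and 8.95 in co-culture, and Stat3 rose by 0.71 ± 0.16. Batf2, a factor induced by interferon-gamma, rose by 3.29 ± 0.19, and Irf2, which can compete with IRF1, by 1.55 ± 0.28 in a probe set of the _s_at kind. Nlrc5 rose by 3.03 ± 0.57 with an uneven co-culture pair at 8.54 and 6.83; leaving out co-culture replicate 1 gave a rise of 2.17, and leaving out replicate 2 gave 3.89. Feedback genes rose as well: Usp18 by 3.14 ± 0.33, Socs1 by 2.83-fold and the phosphatase gene Ptpn2 by 0.80 ± 0.20. Irf1, Ifngr1 and Ifngr2 were among the 18 not analysed here.

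Of 26 genes listed for the TNF and NF-kB arm, 6 were in the table and all 6 rose, where 48.3% of all named genes were called higher. The other 20 were not analysed here, so the rise of the 6 does not describe the whole arm. Their median difference was 1.53, beside -0.61 over all named genes, with the same limit on that yardstick. The largest rise was that of Nfkbiz, 2.38 ± 0.29 (SE) in the brighter of 2 probe sets and 2.97 in the other. Nfkbib followed (2.04 ± 0.27, an _s_at probe set). Both encode regulators of NF-kB from the IkB family. The TNF receptor gene Tnfrsf1a rose by 0.80 ± 0.19 and the adaptor gene Myd88 by 1.51 ± 0.20.

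Of 21 other listed genes linked to T cell inhibition by MSC, not all of which encode an inhibitor, 7 were in the table. Of these, 4 were higher and 3 lower, which is near the 48.3% and 51.7% of all named genes. Nos2, the source of nitric oxide, was at 5.47, 5.60 and 5.17 in MSC alone and at 8.70 and 8.46 in co-culture. Its rise of 3.17 ± 0.21 (SE) lay between those of Ido1 and Cd274. Lif rose by 3.08 ± 0.67, or by 2.43 without MSC replicate 3. Arg2 and the prostaglandin receptor gene Ptger4 were as dim as Ido1 and rose by similar amounts, Arg2 by 0.86 ± 0.21 and Ptger4 by 1.03 ± 0.18. Tgfb2 fell by 2.09, Tgfb3 fell by 2.41 and Cxcl12 fell by 3.52.

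**Figure D4:**
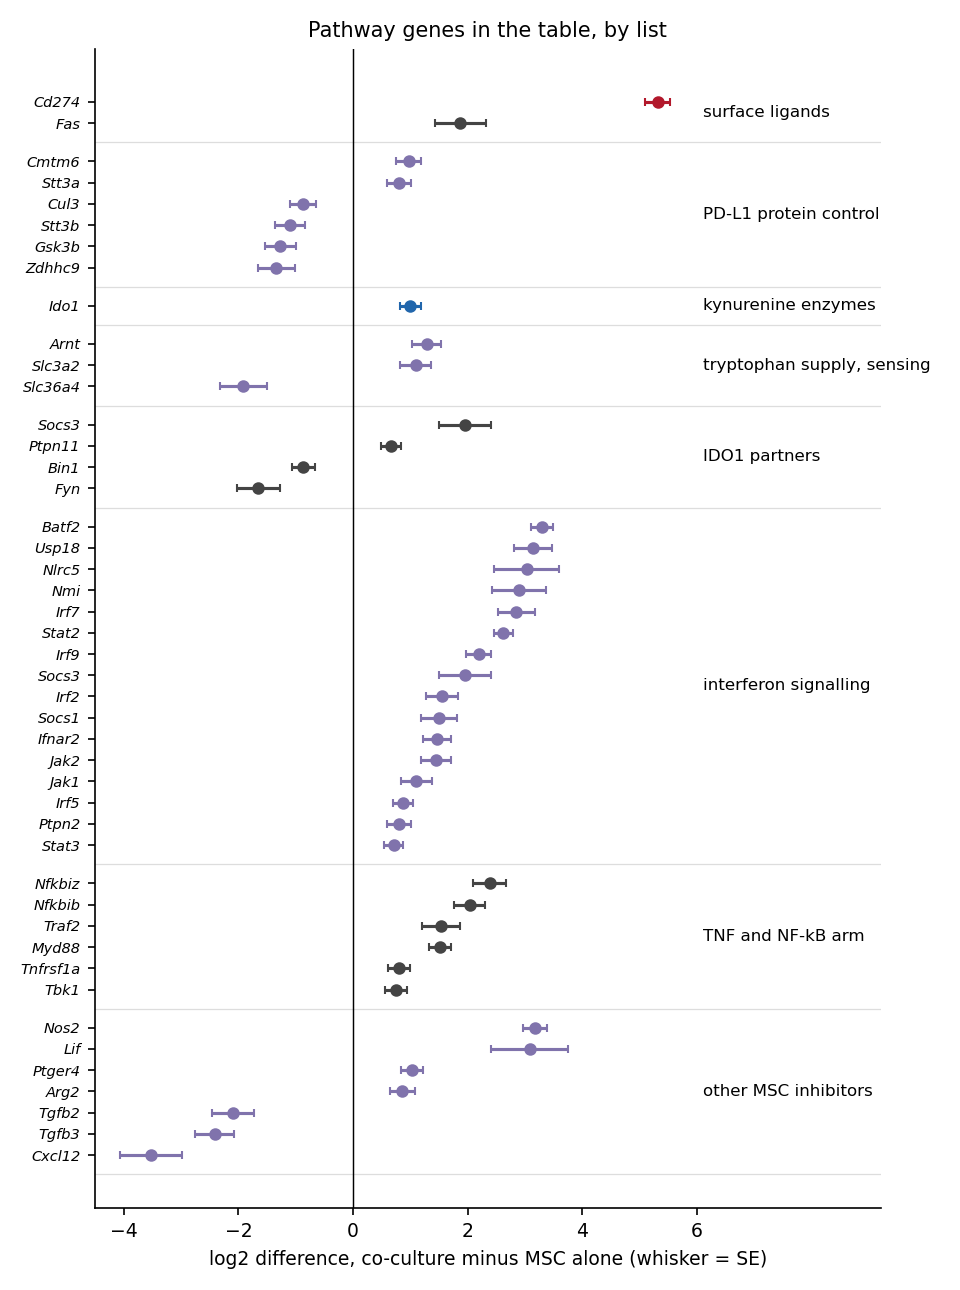
Log2 difference, co-culture minus MSC alone, of each listed gene in the table, grouped by list, with a whisker of 1 SE and 1 probe set per gene. Cd274 at 5.32 is the highest point; Ido1 at 1.00 lies level with Cmtm6 and Ptger4; the interferon and NF-kB lists lie wholly to the right of 0.

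The genes most like each of the pair over the 5 arrays were taken as those with the smallest root-mean-square distance between log2 profiles, each minus its own mean. For Cd274 they were Tap1 (distance 0.19), Ccl8 (0.21), Psmb9 (0.30), Igtp (0.31) and Gbp6 (0.37), against a median of 2.91 over 2189 genes. Tap1, a subunit of the class I peptide transporter, was at 6.77, 6.74 and 6.12 in MSC alone and at 11.58 and 11.50 in co-culture. Ccl8, a chemokine gene, was at 5.20, 5.04 and 4.51, then at 9.89 and 9.87. In Cd274, Tap1, Ccl8, Psmb9 and Igtp alike, MSC replicate 3 was the lowest array, and in Gbp6 it was the highest of MSC alone. These genes were chosen by likeness over the same arrays, which favours a shared order. The median distance also includes the genes that fell. Of the 4 with a RefSeq window, Igtp alone held a GAS or ISRE match in the 250 bases before its start.

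For Ido1 the nearest genes were 2610507B11Rik (0.062), Zc3hav1 (0.065), Arpc5l (0.066), Kars (0.072) and Acod1 (0.072), against a median of 0.86. Small changes make small distances, so these values and those of Cd274 are not on an equal footing. Zc3hav1, an antiviral RNA-binding protein gene, rose by 1.08 ± 0.17 (SE) from 10.07, and Acod1, which encodes the enzyme that makes itaconate, by 1.09 ± 0.17 from 4.58. Kars, encoding lysyl-tRNA synthetase, rose by 0.93 ± 0.18 and the actin-branching subunit gene Arpc5l by 0.92 ± 0.17. The profile of Ido1 was thus shared by genes of low and of high level.

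**Figure D5:**
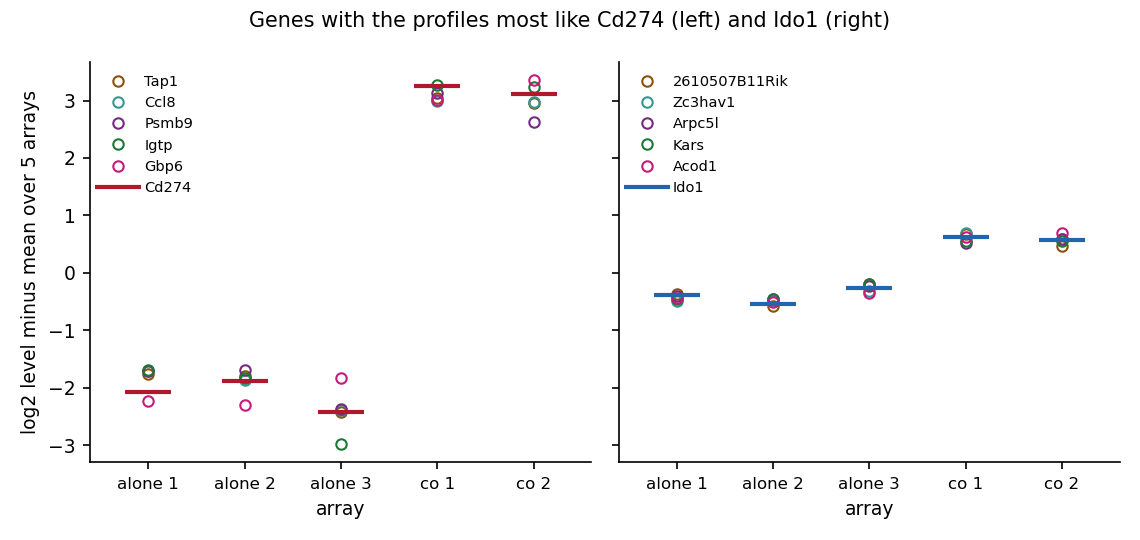
Log2 level minus the gene's mean over the 5 arrays (vertical) by array (horizontal), for Cd274 and its 5 nearest genes (left) and Ido1 and its 5 nearest genes (right); bars are the named gene and open circles the others. The right-hand points stay between about -0.6 and 0.7, and those on the left step from below -1.5 to above 2.5.

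Cd274 and Ido1 are also made by macrophages and dendritic cells. Of 18 macrophage and monocyte markers 2 were in the table: Mpeg1 was at 4.40, 4.82 and 4.71 in MSC alone and at 9.44 and 8.81 in co-culture, and Ctss at 3.08, 3.65 and 3.36, then at 6.62 and 5.89. Both were higher, as were 48.3% of all named genes. Their summed linear level, most of it from Mpeg1, was 29.5 to 40.8 in MSC alone and 508 to 790 in co-culture. The other macrophage markers, among them Ptprc, Csf1r and Adgre1, were not analysed here. Neither were any of 18 T cell, 12 dendritic cell and 9 endothelial markers, of which 0 were in the table. The part of other cells in the rises of Cd274 and Ido1 was not tested. Of 18 stromal markers 9 were in the table, of which 2 were higher and 7 lower in co-culture, where 48.3% of all named genes were higher and 51.7% lower. The higher ones were Pdgfra, by 3.77 ± 0.70 (SE) from 7.31 (3.08 without MSC replicate 3), and Vcam1, by 2.91 ± 0.19 from 9.23. In MSC alone Col1a2, Col3a1 and Col1a1 were at means of 14.4, 13.8 and 13.2, near the table's highest value of 14.6. These collagen probe sets were among the 7 lower ones and read 12.4, 9.10 and 9.21 in co-culture.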

How the data were processed

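The authors deposited log2 values, 1 per probe set and array, summarised with RMA according to the submitters' processing notes; its version is not stated there. RMA compresses low values. The probe table supplied for the platform gave 1 symbol for 3013 probe sets, several for 69 and none for 291. Where a gene had several probe sets, the brightest on average was used. The test was limma 3.58.1 (R 4.3.3; lmFit and eBayes, no covariates, two-sided), fitted to all 3373 probe sets with Benjamini-Hochberg adjustment over them; SE is moderated, SD is over arrays. The number of arrays limits the precision. The fit was tested on simulated data. Exact permutation tests used scipy 1.17.1. The members and the 8 lists (184 distinct genes, 44 in the table) were chosen with earlier results of these data known. In the results "named genes" means all 2190 genes with a symbol. The genes described one by one are listed genes in the table, the 5 nearest profiles and the neighbours in the order of differences. RefSeq promoters (GRCm38.p6) were matched by symbol. Alternatives covered scaling, moderation, dim probe sets, left-out arrays and a replicate block.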

Additional observations from a re-analysis of the deposited data

How the results depend on the processing

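Cd274 rose by 5.17 to 5.48 and Ido1 by 0.93 to 1.16 under every alternative run on them, with adjusted p in limma up to 0.0123 and 0.0234 when the number of tests was kept. The change of Cd274 exceeded that of Ido1 by 4.10 to 4.51. With the moderated limma p multiplied by 15 times the 3373 rows, Cd274 had 0.0125 and Ido1 (a rise of 1.00) had 1. Without the dimmest 25% of probe sets Ido1 drops out, leaving 0 kynurenine enzymes. Genes called higher were then 1 for PD-L1 protein control, 1 for IDO1 partners, 2 for other MSC inhibitors and 15 for interferon signalling. Genes called lower were then 3 for PD-L1 protein control. Without moderation of the spread, genes called higher were 1 for surface ligands, 1 for IDO1 partners and 15 for interferon signalling. Leaving out single arrays gave rises of 5.17 to 5.44 for Cd274 and 0.93 to 1.07 for Ido1; an arm left with 1 array was assumed to vary like the other. Centring each array on its median raised all differences by 0.16 and reversed none of those named. Replicate numbers are shared by the groups but not said to pair them: with a replicate block the rises were 5.17 and 1.07, and 3365 probe sets were called. Deviations from the group means correlated at 0.221 and 0.32 for same-numbered arrays. Against the other co-culture array, MSC replicates 1 and 2 gave -0.221 and -0.32. With 2 co-culture arrays these deviations mirror each other, so the opposite signs are fixed by arithmetic and the values cannot show pairing. Another probe set could not be tried, since each gene had 1.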

Other observations

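In the order of protein-coding genes along chromosome 19 in RefSeq's GRCm38.p6 table, Cd274 lies between Plgrkt and Pdcd1lg2, with Jak2, Insl6 and Rln1 before them. Of the 4 genes on each side of Cd274, 2 were in the table and both were higher in co-culture, as were 48.3% of all genes with a symbol in the table. Jak2 was at 8.13, 7.85 and 8.47 in MSC alone and at 9.37 and 9.82 in co-culture. Insl6, a gene of the insulin and relaxin family, rose by 2.11 ± 0.39 (SE; adjusted p 0.00542 in limma), or by 2.77 without co-culture replicate 1 and 1.45 without replicate 2. Of the 4 genes on each side of Ido1 on chromosome 8, which include its paralogue Ido2, 0 were in the table.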
